A study of Homo sapiens with 2 samples.

Results

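Cancer-testis and MAGE family genes were examined in the RNA-Seq data of SF-539 cells, a human glioblastoma (GBM) cell line, with or without depletion of FKBP9, an ER-resident prolyl isomerase. The genes were chosen by name among the protein-coding genes: symbols that start with MAGEA, MAGEB, MAGEC, MAGED, MAGEE, MAGEF, MAGEH, MAGEL, GAGE, PAGE, XAGE or SSX and go on with a digit, together with CTAG1A, CTAG1B, CTAG2 and PRAME. This gave 72 of the 58735 genes measured, counted here as 71 members because MAGED4 and its copy MAGED4B were summed. Of these, 67 lie on the X chromosome. The other 4 are MAGEF1 on chromosome 3, SSX2IP on chromosome 1, MAGEL2 on chromosome 15 and PRAME on chromosome 22. SSX2IP encodes a centrosomal protein that binds SSX2 and is itself no SSX gene, but its symbol meets the rule.

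Cancer-testis genes are transcribed in germ cells of the testis, are kept silent by DNA methylation in most adult tissues, and are switched on again in many tumors, where peptides of their products can be presented to T cells. MAGE proteins share a domain, the MAGE homology domain, with which they bind E3 ubiquitin ligases and alter what these ligases modify. Type I MAGE genes (MAGEA, MAGEB and MAGEC) lie on the X chromosome and have the germ-line pattern, whereas type II MAGE genes (MAGED, MAGEE, MAGEF, MAGEH and MAGEL) are transcribed in many tissues, the brain among them. The members comprised 26 type I MAGE genes, 8 type II MAGE genes, 13 GAGE, 6 PAGE, 5 XAGE, 8 SSX and 3 CTAG genes, PRAME and SSX2IP.

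Both groups were SF-539 cells grown in DMEM with 10% serum and recorded at passages 15-18. They had been stably infected with pGIPZ lentivirus and selected with puromycin, and carried an shRNA that was either a control (shControl) or directed at FKBP9 (shFKBP9). Each condition had 1 library, made from cells selected as stable clones, so that the difference between the conditions has no replicate check and cannot be told apart from a difference between the selected cells. The values were deposited as FPKM, fragments scaled by gene length and library size, and the fragments on each gene were recovered from them. They totaled 18116873 in shControl and 17158514 in shFKBP9, and 1 fragment on a gene of 1 kb was worth 0.0552 and 0.0582 FPKM. FKBP9 itself had 49.8 FPKM in shControl and 4.68 FPKM in shFKBP9, which left 9.39%. The cells are labelled as epithelial glioma cells of the brain. Summed over 4 epithelial markers the level was 1.67 FPKM in shControl and 1.52 in shFKBP9, and CDH1, which defines epithelia, had 0 and 1 fragments. Summed over 5 glial markers it was 3.43 and 3.22 FPKM, with GFAP at 0.196 and 0.139 FPKM. Most of these sums came from KRT8, at 1.28 and 1.09 FPKM, and from the intermediate filament gene NES, at 2.36 and 2.17 FPKM, whereas 5 mesenchymal markers summed to 1916 and 2037 FPKM. CDH1 and GFAP, which define epithelia and astrocytes, were thus near 0, while KRT8 and NES were above 1 FPKM. The glial marker OLIG2 had 0.791 and 0.712 FPKM, and the epithelial marker EPCAM 0.241 and 0.324 FPKM. In such bulk libraries, fewer cells with a transcript and less of it per cell cannot be told apart.

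Most members had no fragment in either library. A fragment was found on 15 members in shControl and on 15 in shFKBP9, on 11 of them in both, and on 19 in at least 1 library. With shControl scaled down to the depth of shFKBP9 and counts rounded down, its number was 11, because the 4 members with 1 fragment in shControl then come to 0. The remaining 52 members had 0 fragments in both. A count of 0 is taken to allow up to 3 fragments per library, which for these 52 genes of 117 to 4319 bp is a level of 0.0384 to 1.49 FPKM, with a median of 0.134. A fragment was thus found on 26.8% of the members, beside 77.4% of the other 19879 protein-coding genes and 66.7% of the other 777 protein-coding genes of the X chromosome. At 1 FPKM or more there were 6 members in each library.

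Detection followed the classes. All members but the type II MAGE genes and SSX2IP, 62 in number, are labelled germ-line restricted here by family name. Their levels in other tissues were not examined. Of these 62, 13 had a fragment and 1 gene, MAGEC2, reached 1 FPKM. Of the 8 type II MAGE genes, 5 had a fragment and 4 reached 1 FPKM. All 13 GAGE, 5 XAGE and 8 SSX genes were at 0 in both libraries, as were the type II genes MAGEE1, MAGEE2 and MAGEL2. GAGE genes encode small disordered proteins, SSX genes are known as the fusion partners of SS18 in synovial sarcoma, and MAGEL2, a gene of the Prader-Willi region, directs protein sorting at endosomes. Together the members held 11313 fragments in shControl and 10762 in shFKBP9, or 624 and 627 in every 1000000. Type II MAGE genes accounted for 96.4% of these, type I MAGE genes for 0.806%.

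**Figure D1:**
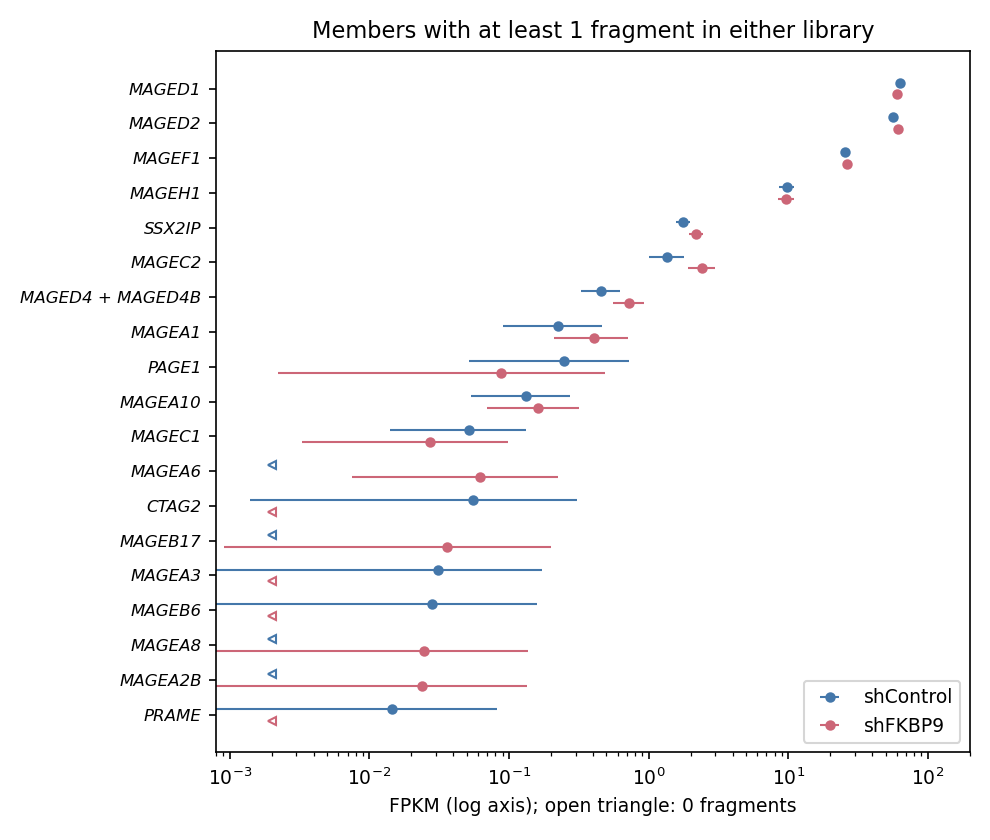
FPKM on a log axis of the 19 members with at least 1 fragment, in shControl (blue) and shFKBP9 (red); points are the library values, lines the exact 95% Poisson intervals of the fragments, which run off the axis where a gene has 1 fragment, and open triangles, placed at an arbitrary position, stand for 0 fragments. MAGED1, MAGED2, MAGEF1 and MAGEH1 lie highest, MAGEC2 alone among the germ-line restricted genes lies above 1 FPKM, and the lower members have wide intervals.

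The type II genes were the abundant members. MAGED1 (ENSG00000179222, chrX:51803007-51902357 of hg38), an adaptor of the p75 neurotrophin receptor that also promotes apoptosis, had 63.1 FPKM in shControl, from 6874 fragments, and 59.9 FPKM in shFKBP9, from 6190. MAGED2 (ENSG00000102316, chrX:54807599-54816012), a regulator of renal salt transporters that is mutated in a transient antenatal form of Bartter syndrome, had 56.8 FPKM from 3026 fragments and 61.2 FPKM from 3091. Both stood above about 96% of protein-coding genes, at percentiles of 96.5 to 96.9, and their order swapped, with MAGED1 higher in shControl and MAGED2 higher in shFKBP9. In shFKBP9 the 95% intervals of the levels overlapped, at 58.4 to 61.4 FPKM for MAGED1 and 59.1 to 63.4 FPKM for MAGED2. Changes are given on the log2 scale, as shFKBP9 over shControl, after 0.1 was added to each FPKM value. The sums over type I or type II genes are the exception, as ratios of fragments scaled to library size without that addition. The 95% interval beside a ratio was computed from the fragments without that addition, and covers counting error only. The ratio was -0.07 for MAGED1 (-0.12 to -0.02) and 0.11 for MAGED2 (0.03 to 0.18). Each interval left out 0, but the FPKM differed by only -5.03% for MAGED1 and 7.73% for MAGED2, and reads of a single library per condition do not show how far such values differ between cultures.

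The stretch upstream of MAGED1 is shown because this was the most abundant member in shControl and had few CG dinucleotides, the sites at which DNA methylation silences germ-line genes. It is the 181 bases of the RefSeq promoter window (250 bases upstream of the start, GRCh38.p14, plus strand) that lie before the gene, chrX:51802826-51803006, with CG in capitals.
MAGED1: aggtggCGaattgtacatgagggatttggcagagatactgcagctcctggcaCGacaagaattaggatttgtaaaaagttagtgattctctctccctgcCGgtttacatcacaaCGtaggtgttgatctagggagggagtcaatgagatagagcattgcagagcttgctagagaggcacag
This stretch holds 4 CG, and the whole window of 250 bases holds 6. The window is the one that starts furthest 5', and which start the transcripts came from was not measured.

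MAGEF1 (ENSG00000177383, chr3:184710367-184712002), which works with the ligase NSMCE1 in the turnover of an iron-sulfur assembly factor, had 25.7 FPKM in shControl and 26.5 FPKM in shFKBP9 (761 and 743 fragments, log2 ratio 0.04, -0.11 to 0.19). MAGEH1 (ENSG00000187601, chrX:55452105-55453566), another binding partner of the p75 neurotrophin receptor, had 9.82 and 9.64 FPKM (260 and 242 fragments, -0.03, -0.29 to 0.23). Neither difference was larger than the counting error. Summed over the 8 type II genes the fragments were 10961 in shControl and 10327 in shFKBP9, a log2 ratio of -0.01 (-0.05 to 0.03). SSX2IP (ENSG00000117155, chr1:84643707-84690803), which takes part in centrosome maturation, had 1.78 FPKM from 278 fragments and 2.19 FPKM from 325, a ratio of 0.29 with an interval of 0.07 to 0.54.

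MAGEC2 (ENSG00000046774, chrX:142202345-142205290, minus strand) was the most abundant germ-line restricted member in both libraries. The protein binds TRIM28 (KAP1) and enhances the ligase activity of this corepressor. MAGEC2 had 49 fragments and 1.36 FPKM in shControl (95% interval 1.01 to 1.80), and 82 fragments and 2.40 FPKM in shFKBP9 (1.91 to 2.98). The value was higher in shFKBP9, and the intervals of the levels did not overlap. The log2 ratio was 0.78 (0.29 to 1.36), so the counts are compatible with a difference below as well as above 2-fold. The level placed MAGEC2 above 51.3% of protein-coding genes in shControl and above 57.3% in shFKBP9. Within 500 kb on either side the table holds 7 other genes, of which MAGEC1 alone had a fragment, 4 in shControl and 2 in shFKBP9.

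The promoters of MAGEC2 and of its neighbor MAGEC1 are shown side by side because these paralogs lay far apart in level, at 1.36 and 0.0517 FPKM in shControl and at 2.40 and 0.0273 FPKM in shFKBP9. Each is 250 bases upstream of the RefSeq start, chrX:142205291-142205540 on the minus strand for MAGEC2 and chrX:141903644-141903893 on the plus strand for MAGEC1, with CG in capitals.
MAGEC2: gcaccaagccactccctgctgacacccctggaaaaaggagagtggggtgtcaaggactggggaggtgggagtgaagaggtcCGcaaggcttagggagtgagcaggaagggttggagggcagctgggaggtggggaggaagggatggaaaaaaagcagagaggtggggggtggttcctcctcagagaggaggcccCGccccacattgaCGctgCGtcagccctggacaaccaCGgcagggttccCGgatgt
MAGEC1: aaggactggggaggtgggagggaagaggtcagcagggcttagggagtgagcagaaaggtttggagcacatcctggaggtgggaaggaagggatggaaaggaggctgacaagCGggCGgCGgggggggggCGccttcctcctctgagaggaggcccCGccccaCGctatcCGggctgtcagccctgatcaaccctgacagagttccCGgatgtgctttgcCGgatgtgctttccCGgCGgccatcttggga
The MAGEC2 window holds 6 CG and the MAGEC1 window 11.

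The other type I genes were at the edge of detection. MAGEA1 (ENSG00000198681, chrX:153179285-153183880), a melanoma antigen recognized by cytotoxic T cells, had 7 fragments in shControl and 12 in shFKBP9, or 0.226 and 0.409 FPKM (0.64, -0.61 to 2.44). MAGEA10 (ENSG00000124260, chrX:152133310-152138578) had 7 and 8 fragments, or 0.133 and 0.161 FPKM (0.16, -1.39 to 1.97). For neither gene was a difference detectable at this depth. MAGEA10 shares its strand and part of its position with the readthrough transcript MAGEA10-MAGEA5, which had 16 and 14 fragments, so that reads of these overlapping genes may have been divided between them. MAGEC1 had 4 and 2 fragments and MAGEA6 0 and 2. MAGEA3 and MAGEB6 had 1 fragment each in shControl, and MAGEA2B, MAGEA8 and MAGEB17 had 1 each in shFKBP9. No fold is given for genes with at most 3 fragments in both libraries.

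Taken as a sum, the 26 type I genes had 69 fragments in shControl and 109 in shFKBP9, a log2 ratio of 0.74 with nothing added (0.29 to 1.19). Without MAGEC2 the sums were 20 and 27, and the interval of their ratio, 0.51, ran from -0.38 to 1.42. The interval of the type I sum thus left out 0 only with MAGEC2 in it. The 36 GAGE, PAGE, XAGE, SSX, CTAG and PRAME genes had 5 fragments in all in shControl, against 1 in shFKBP9. These lay on PAGE1 (3 and 1), on CTAG2 (1 and 0) and on PRAME (1 and 0). CTAG2 encodes LAGE-1, a relative of the antigen NY-ESO-1, and PRAME encodes a substrate receptor of CUL2 ligases that represses retinoic acid receptor signaling.

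MAGED4 and MAGED4B are a pair of neighboring copies that encode the same kind of type II MAGE protein, at chrX:52184823-52192268 on the plus strand (ENSG00000154545) and chrX:52061827-52069248 on the minus strand (ENSG00000187243). MAGED4 had 30 fragments in shControl and 20 in shFKBP9, whereas MAGED4B had 10 and 41. Taken alone, MAGED4B held 25.0% of the fragments of the pair in shControl (exact binomial 95% interval 12.7% to 41.2%) and 67.2% in shFKBP9 (54.0% to 78.7%). The copies thus differed in opposite directions, with log2 ratios of -0.38 (-1.40 to 0.36) for MAGED4 and 1.46 (1.09 to 3.28) for MAGED4B. Every window of 100 bases in the exons of either copy, 3928 windows for MAGED4 and 3956 for MAGED4B, was found at 2 places in hg38, so that a read as short as such a window has no base with which to tell the copies apart. The sum is therefore the quantity to read. It was 40 fragments and 0.456 FPKM in shControl (0.326 to 0.621), and 61 fragments and 0.725 FPKM in shFKBP9 (0.555 to 0.931), a log2 ratio of 0.57 (0.09 to 1.30). The interval of the ratio left out 0, while the intervals of the levels overlapped.

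Sequences upstream of the copies are shown because they share a run as well. They are the parts of RefSeq promoter windows that lie before each gene, chrX:52184638-52184822 for MAGED4 (185 bases) and chrX:52069273-52069522 on the minus strand for MAGED4B (250 bases). For MAGED4B the window with the longest run shared with MAGED4 was taken, so the match was part of the choice. The run that both share is in capitals.
MAGED4: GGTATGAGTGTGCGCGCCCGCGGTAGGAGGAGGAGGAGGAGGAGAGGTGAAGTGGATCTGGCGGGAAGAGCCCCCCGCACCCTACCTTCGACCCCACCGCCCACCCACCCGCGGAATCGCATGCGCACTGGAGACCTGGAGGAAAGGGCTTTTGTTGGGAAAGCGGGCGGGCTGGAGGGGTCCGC
MAGED4B: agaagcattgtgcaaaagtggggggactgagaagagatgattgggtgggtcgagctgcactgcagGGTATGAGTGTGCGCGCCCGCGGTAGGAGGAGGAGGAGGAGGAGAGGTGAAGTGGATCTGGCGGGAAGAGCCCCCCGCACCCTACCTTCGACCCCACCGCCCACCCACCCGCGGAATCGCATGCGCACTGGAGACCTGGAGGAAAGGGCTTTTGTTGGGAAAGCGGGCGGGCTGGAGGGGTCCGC
All 185 bases shown for MAGED4 were found without a mismatch in the MAGED4B stretch, from its position 66 on.

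**Figure D2:**
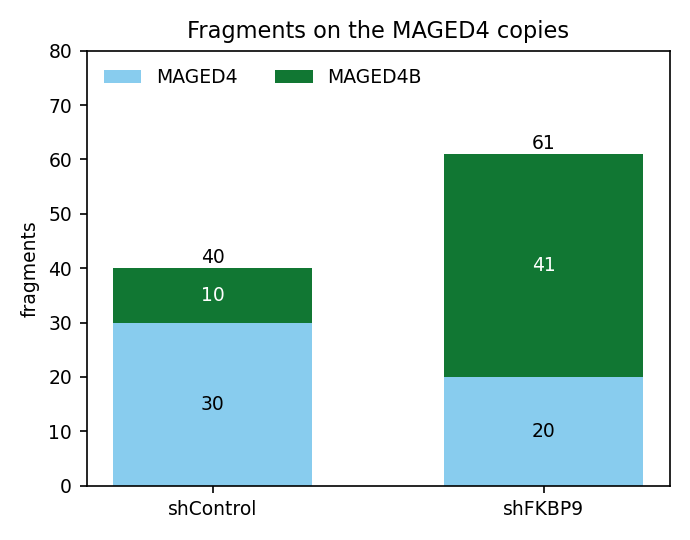
Fragments on MAGED4 (light blue) and MAGED4B (green) in each library, stacked, with the number on each part and the sum above the bar. The sum was 40 in shControl and 61 in shFKBP9, while the part on MAGED4B went from 10 to 41.

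The same question was asked of each member. Exon windows of 100 bases were compared with hg38, using GENCODE release 44, in which 20 of the 72 genes have the start and end given in the table. The share of windows found once was above 90% for 39 genes and below 50% for 27, and it was 0 for 20, among them MAGEA2 and MAGEA2B, CTAG1A and CTAG1B, XAGE1A and XAGE1B, SSX2, SSX4 and SSX4B, and 9 of the 13 GAGE genes. It was 62.0% for MAGEA3 and 61.8% for MAGEA6, and 11.4% for MAGEA9 and MAGEA9B. For MAGEC2, MAGEC1, MAGEA1, MAGEA10, MAGED1, MAGED2, MAGEF1, MAGEH1, SSX2IP and PRAME it was 100%, so these genes share no window of this length with another place. Of the 52 genes without a fragment, 25 were above 90% and 24 below 50%. Of these 24, 17 had no window of their own, and in the others the share ran from 4.85% in SSX2B to 49.3% in GAGE10. Whether reads with several matching places were counted is not given in the sources used here, and their part in the counts of 0 was not tested.

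Members were compared with all genes by the same criteria. Past 2-fold, with at least 1 FPKM in either library, 0 of 6 members were higher and 0 of 6 lower in shFKBP9, where 2.02% and 2.19% of the 12741 genes tested were higher and lower. With 6 members these counts say little. Of the 9 members with at least 10 fragments, the counting interval lay above 0 for MAGEC2, MAGED2, SSX2IP and the MAGED4 pair (4 of 9), and below 0 for MAGED1 (1 of 9). Among all 17105 genes with as many fragments it lay above 0 for 13.8% and below 0 for 16.9%. Genes with many fragments have narrow intervals, MAGED1 and MAGED2 among them, whose FPKM differed by -5.03% and 7.73%. The interval included 0 for MAGEF1, MAGEH1, MAGEA1 and MAGEA10. The median log2 ratio of the 9 members was 0.16, and that of all genes with at least 10 fragments was -0.02. These intervals compare the libraries and not the conditions, and whether the members differ from other genes was not tested.

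**Figure D3:**
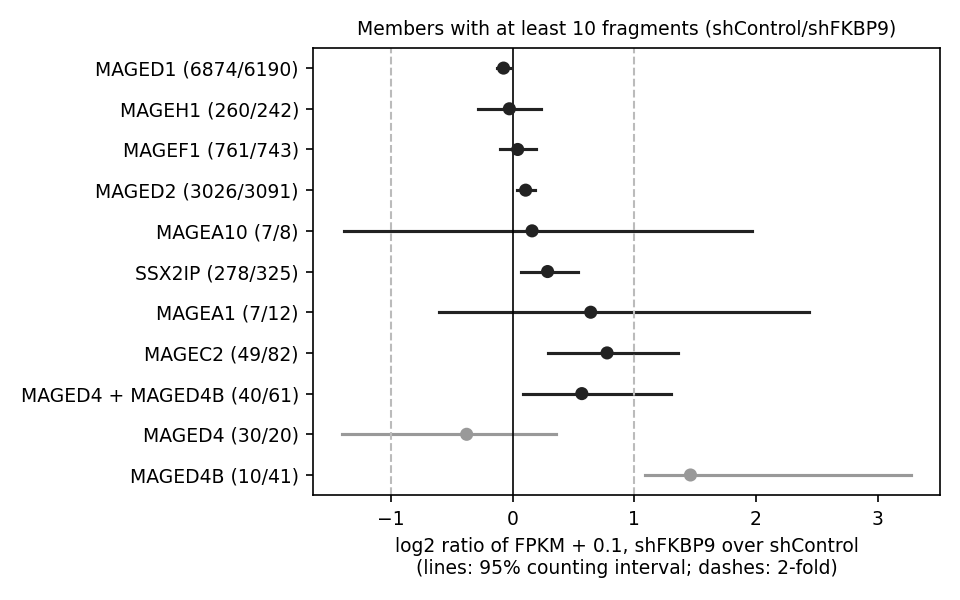
Log2 ratio of FPKM (0.1 added) in shFKBP9 over shControl for the 9 members with at least 10 fragments, and in gray for MAGED4 and MAGED4B apart; lines are 95% counting intervals, dashed lines mark 2-fold, and the numbers beside the names are fragments in shControl and shFKBP9. No black point lies beyond 2-fold, and MAGEC2, at 0.78, is the furthest from 0.

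Promoters were read from RefSeq for 63 of the 72 genes, taking 1 window of 250 bases per gene, the one that starts furthest 5'. Which start the transcripts came from was not measured. CTAG1A, CTAG1B, CTAG2, GAGE2E, MAGEA1, MAGEA10, MAGEB17, MAGEH1 and SSX3 were not matched. The members held a median of 8 CG per window, type I MAGE genes 7, GAGE genes 8 and type II MAGE genes 10, beside 11 over all 35116 promoters of the table. SSX2IP, with 26, had the most of the 63. The 35116 promoters were not reduced to 1 per gene, so the members and this background are unlike sets. Of the 63 windows, 12 belong to GAGE genes, many of them near-identical copies. Among the type II genes, the abundant MAGED1 and MAGED2 had 6 each and MAGEF1 had 12. MAGEE1, MAGEE2 and MAGEL2, at 0 fragments, had 12, 7 and 8, and MAGED4 and MAGED4B had 22 and 16. MAGEH1 was not matched, and whether the number goes with the level was not tested. The letters CCGGAA, a form of the sites for ETS factors, were searched on both strands. They were found in 5 of the 63 windows (7.94%), those of MAGEA3, MAGEA6, MAGEB6, MAGEF1 and PRAME. Over all promoters, again not reduced to 1 per gene, the share was 14.5%. This is a match of letters and no measure of binding. Other letters, such as the ccggat in the stretches shown for MAGEC2 and MAGEC1, were not searched.

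The ligases and regulators with which MAGE proteins work were present at levels well above most of the members. The counts of intervals above and below 0 in these lists are to be read beside the 13.8% and 16.9% of all genes, and genes with many fragments have narrow intervals. Of 8 genes for such ubiquitin ligases and deubiquitinases, 0 had an interval above 0 (1 when the median ratio of genes with at least 50 fragments was set to 1), 3 had one below 0, and the median log2 ratio was -0.06. TRIM28, the partner of MAGEC2, had 114 FPKM in shControl and 108 in shFKBP9 (8315 and 7448 fragments, -0.08, -0.13 to -0.04). HUWE1, a ligase that works with MAGEA11, had 8946 and 6529 fragments (-0.38, -0.42 to -0.33), and TRIM27, the partner of MAGEL2, had 1382 and 1031 (-0.34, -0.46 to -0.23). The interval for NSMCE1, the partner of MAGEF1, included 0 (0.14, -0.02 to 0.30), as did that for USP7, which acts with MAGEL2 and TRIM27 (-0.03, -0.12 to 0.05). MAGEA11 and MAGEL2, with which HUWE1 and TRIM27 work, were at 0 in both libraries.

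The endosomal partners of MAGEL2 were transcribed although MAGEL2 was at 0. Of 10 genes of the retromer and WASH complexes, 4 had an interval above 0 and 1 below, with a median of 0.09, beside the same 13.8% and 16.9% of all genes. VPS26A, a retromer subunit, had 1183 and 1418 fragments (0.34, 0.23 to 0.45) and WASHC2A had 2069 and 1769 (-0.15, -0.24 to -0.06). Of 6 genes of the SMC5 and SMC6 complex, which holds the MAGE protein NSMCE3, 2 had an interval above 0 and 0 below (median 0.08). NSMCE3 itself had 640 and 705 fragments, or 7.31 and 8.49 FPKM (0.21, 0.06 to 0.37). Of the other MAGE domain genes outside the name rule, NDN had 4 and 0 fragments and TRO 1 and 1. The 6 partners of PRAME gave 3 above 0 and 0 below (median 0.12), led by CUL2 with 583 and 731 fragments (0.40, 0.24 to 0.56). Among 11 chromatin partners of SSX proteins, 1 was above 0, SS18 (1966 and 2129 fragments, 0.19, 0.10 to 0.28), and 5 were below, BRD9 furthest (1004 and 751, -0.34, -0.48 to -0.20), with a median of -0.09.

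Regulators that hold germ-line genes silent were next examined. Of 22 such genes, 21 were found in the table by symbol. The interval lay above 0 for 2, below 0 for 6 and included 0 for 13, and the median log2 ratio was -0.04 (-0.02 with median scaling, which sets the median ratio of genes with at least 50 fragments to 1). The lowest ratios belonged to EHMT2 and EHMT1, which methylate histone H3 at lysine residue K9, with 1875 and 1356 fragments (-0.39, -0.49 to -0.29) and 1162 and 851 fragments (-0.36, -0.50 to -0.24). The maintenance DNA methyltransferase DNMT1 had 5537 and 4459 fragments (-0.23, -0.29 to -0.18) and the de novo enzyme DNMT3B had 327 and 245 (-0.33, -0.58 to -0.10). ATF7IP, a partner of the methyltransferase SETDB1, was higher with 444 and 519 fragments (0.29, 0.12 to 0.49), and so was MPHOSPH8 of the HUSH complex with 282 and 319 (0.25, 0.02 to 0.49). Of 5 measured regulators that open such genes, 0 had an interval above 0 and 2 had one below, the acetyltransferase genes EP300 (-0.29, -0.38 to -0.21) and CREBBP (-0.22, -0.35 to -0.11). Their median was -0.11, or -0.04 with 1 added to FPKM. CTCFL, the germ-line relative of CTCF, was at 0 in both libraries. In both lists the counts are to be read beside the 13.8% and 16.9% of all genes, and 0 genes of either list passed 2-fold.

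**Figure D4:**
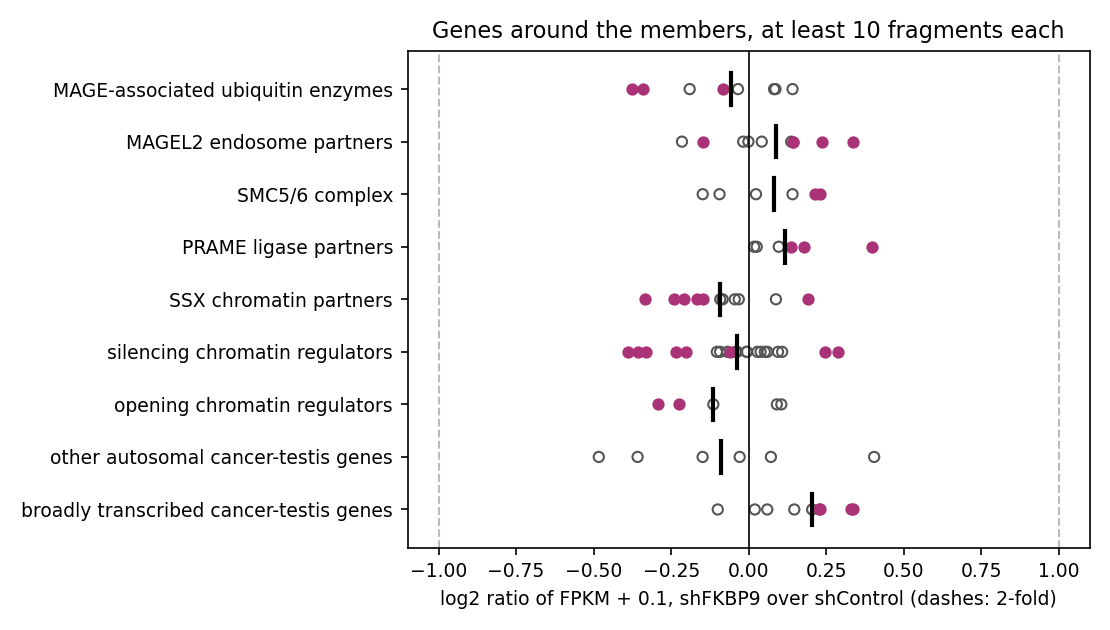
Log2 ratio of FPKM (0.1 added) for genes with at least 10 fragments; filled points have a 95% counting interval that leaves out 0, open points do not, bars are list medians and dashed lines mark 2-fold. Shown are the 9 lists of partners, regulators and other cancer-testis genes with at least 3 such genes, without the marker lists; all their points lie within 2-fold, with medians between -0.11 and 0.20.

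Other X-linked cancer-testis antigens had hardly any fragments, whereas some autosomal ones were transcribed. Of 43 further X-linked antigens, 38 were at 0 in both libraries, and the other 5 (SAGE1, CT45A10, SPANXB1, SPANXC and FMR1NB) had 1 fragment each. Of 26 autosomal antigens, 14 were at 0 and 6 had at least 10 fragments, all 6 with intervals that included 0. The median of these 6 was -0.09, but -0.03 with 1 in place of 0.1 added to FPKM, and -0.36 for those with at least 50 fragments. KDM5B, a histone demethylase gene transcribed in many tissues, held most of the fragments of this list, with 1642 in shControl and 1525 in shFKBP9, or 3.50 and 3.43 FPKM (-0.03, -0.13 to 0.07). ACTL8 had 50 and 33 fragments (-0.48, -1.20 to 0.14) and ZNF165 15 and 20 (0.40, -0.55 to 1.56). The last list held 9 genes that are counted among cancer-testis antigens but transcribed in many dividing cells, mitotic genes for the most part, and all 9 reached 1 FPKM. Their median was 0.20, with 4 intervals above 0 and 0 below, beside 13.8% and 16.9% of all genes. Those above 0 included ATAD2, a chromatin ATPase (1724 and 1919 fragments, 0.23, 0.14 to 0.33), CEP55, an abscission factor (1453 and 1743 fragments, 0.34, 0.24 to 0.44), and the kinase gene PBK (1027 and 1225, 0.33, 0.21 to 0.45).

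Markers of other cells were counted beside MAGEC2 and the type I sum. The 10 germ cell markers had 25 fragments in shControl and 24 in shFKBP9 in all, and STRA8, PRM1, PRM2, TNP1 and ZPBP were at 0 in both. Those with most were ACRV1 (12 and 6) and DAZL (6 and 12). Blood markers had 2 and 0 fragments. Of the keratinocyte markers, KRT5 had 8 and 17 fragments and KRT14 had 1 and 24, more in shFKBP9, as MAGEC2 had. Their part in the result was not tested.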

How the data were processed

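RNA of SF-539 cells with either shRNA was sequenced by the authors, with 1 library for each. Reads with adapters, undetermined bases or low quality were removed, and the submitters' processing notes name hg38, HISAT2 2.0.5, featureCounts 1.5.0-p3 and edgeR. How strand and reads with several matches were counted is not given in the sources used here. The authors deposited the values as FPKM per gene, with gene positions, lengths and biotypes. The table held 0 further sample columns and no columns of comparisons.

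Fragments were recovered from FPKM and gene length, and 100% of the values above 0 came out whole within 0.001 of a fragment. Log2 ratios of genes and of the MAGED4 pair used FPKM with 0.1 added, and those of the type I and type II sums used fragments scaled to library size. Intervals at 95% (Poisson for levels above 0, Clopper-Pearson for ratios and shares) cover counting error only, and PCR copies are not independent molecules. With 1 library per condition no test between conditions was possible, and p-values are not given. Recovery of fragments, ratios and intervals were tested on simulated data. Exon windows came from GENCODE release 44, and promoters from RefSeq (GRCh38.p14). Python 3.11.15 was run with scipy 1.17.1, numpy 2.4.6, matplotlib 3.10.9 and pandas 2.3.3.

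The members and the 17 gene lists were chosen with earlier results of these data known. Named genes are members with at least 1 FPKM in a library or 10 fragments in all, members that are near-identical copies or have 3 fragments in a library, FKBP9, the 3 highest and 3 lowest genes of a list, and direct partners of members. DNMT1, some members at 0, members and X-linked antigens with 1 or 2 fragments, and single markers are named besides, a choice made once their values had been seen. The alternatives were an addition of 1 or 0.01, scaling by the median ratio of genes with at least 50 fragments, TPM, other minimums, copies kept apart or summed further, members without SSX2IP, and libraries reduced to equal depth.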

Additional observations from a re-analysis of the deposited data

How the results depend on the processing

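Under the alternatives run, 101 values for counts of members, counts within lists and list medians stayed within 1.5 times, and 5 did not. Some of the 101 could not change. In most lists every gene tested had at least 50 fragments, so that minimum removed none. Neither MAGED4 copy reached 1 FPKM, so keeping them apart could add no member past 2-fold at that minimum. The first of the 5 was the count of MAGE-associated ubiquitin genes with an interval above 0. It went from 0 to 1 when the median ratio of genes with at least 50 fragments was set to 1. The others were medians that kept their sign. With 1 added to FPKM the median went to -0.041 for the regulators that open germ-line genes and to -0.030 for the autosomal antigens, which went to -0.36 with a minimum of 50 fragments, where fewer genes remain. With median scaling it went to -0.018 for the silencing regulators. For single genes, 36 values stayed within the counting interval. The exceptions were the copies taken alone, -0.38 for MAGED4 and 1.46 for MAGED4B, in place of 0.57 for their sum. Over the additions and scalings the log2 ratio ran from 0.53 to 0.82 for MAGEC2, from 0.24 to 0.66 for the MAGED4 pair, from 0.20 to 0.83 for MAGEA1 and from 0.20 to 0.31 for SSX2IP. It ran from -0.09 to -0.06 for MAGED1 and from 0.09 to 0.13 for MAGED2. The median FPKM ratio of genes with at least 50 fragments was 0.987 before scaling, or -0.02 on the log2 scale. No paired analysis was possible because each condition has 1 library. Depth limits the members with fewer than 10 fragments, for which only the presence of reads can be stated.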

Other observations

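The table also holds 15 rows of the same gene families outside the protein-coding set, and 4 of them had a fragment. The pseudogene MAGEA5 had 3 in shControl and 7 in shFKBP9, and the readthrough transcript MAGEA10-MAGEA5 had 16 and 14. SSX6P had 4 and 2 and SSXP10 had 3 and 1, whereas the 8 protein-coding SSX genes were at 0.

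MAGEC2 and MAGEA1 lay in different surroundings. Of 7 other rows within 500 kb of MAGEC2, 2 were protein-coding and 0 of these reached 1 FPKM. Of 43 rows within 500 kb of MAGEA1, 17 had a fragment, and 4 of 25 protein-coding genes reached 1 FPKM.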
